A study of Mus musculus with 2 samples.

Results

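GATA4 occupied sites (OS) were examined at 10 genes of the Notch pathway in adult mouse liver: the receptors Notch1, Notch2 and Notch4, the ligands Dll4, Jag1 and Jag2, the DNA-binding factor Rbpj and the target genes Hes1, Hey1 and Heyl. An OS was assigned to a gene when its midpoint lay in the gene body or within 50 kb of it, which gave 6 OS of the 4409 in the common peak list, at 5 of the 10 genes. The samples were 1 GATA4 ChIP and 1 input DNA, both from whole liver of C57BL/6 x Sv129 mice aged 2 to 3 months, and neither carried an engineered allele or a treatment by the labels. The age is that of the labels, and the study's methods give a somewhat later range. The ChIP antibody was GATA4 C-20, and the input received none. By the study's methods the ChIP joined 2 biological replicates that each came from whole livers of 2 mice, and the peak lists cover them together. There are therefore no replicate values and no spread between animals, and every value below describes 1 set of peak calls. The lists hold no reads, so the depth behind a site is unknown.

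Notch receptors are single-pass membrane proteins that are cut when a ligand of the Delta-like or Jagged family on a neighbouring cell binds them. The freed intracellular part enters the nucleus and joins RBPJ, which is bound to DNA, and the complex switches on target genes such as those of the Hes and Hey repressors. In the liver the pathway is known for its part in bile duct formation and in endothelial cells. Whole liver mixes hepatocytes with endothelial, bile duct and other cells, so the cells in which GATA4 held a site cannot be told apart here, and peak lists carry no expression by which the tissue label could be checked.

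The 6 OS fell into distinct settings. Hes1, a transcriptional repressor and a classical Notch target, was occupied right at its transcription start site (TSS). Notch1 held an OS in intron 15 and a further one upstream. That upstream site and the OS assigned to Notch4, Dll4 and Jag2 all lay nearest to the TSS of another gene. Notch2, Jag1, Hey1, Heyl and Rbpj had 0 sites in the common list, and no SPP or MACS2 peak either. Numbers given to OS are their places in the common list, where all peaks carry the same display score. What the numbering follows is not stated in the files.

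The stretches of sequence that carry these sites are given first, read from the plus strand of mm9. Capitals mark the GATA motif, searched on both strands as the letters AGATAA or the letters AGATAG, and likewise with TGATAA or with the letters TGATAG in their place (a minus-strand match to the first of these reads TTATCT), and the RBPJ motif, searched as GTGGGAA on both strands (TTCCCAC on the minus strand). These motifs do not overlap each other in the stretches shown. Sites wider than 300 bases were cut to the central 300, and untranslated exon sequence was left out except for 30 bases around a GATA match, so that an RBPJ match in the Notch4 site is not shown. The second Notch1 site was added after its values were seen, so that every OS with a match could be shown.
Notch1 site 407, intron 15, chr2:26330552-26330851: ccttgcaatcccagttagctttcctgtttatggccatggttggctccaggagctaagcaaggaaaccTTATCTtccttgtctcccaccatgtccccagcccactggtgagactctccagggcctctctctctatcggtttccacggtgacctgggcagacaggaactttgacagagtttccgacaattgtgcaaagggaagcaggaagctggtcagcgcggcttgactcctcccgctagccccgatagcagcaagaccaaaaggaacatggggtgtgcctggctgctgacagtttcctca
Notch1 site 564, between Notch1 and Egfl7, chr2:26412141-26412411: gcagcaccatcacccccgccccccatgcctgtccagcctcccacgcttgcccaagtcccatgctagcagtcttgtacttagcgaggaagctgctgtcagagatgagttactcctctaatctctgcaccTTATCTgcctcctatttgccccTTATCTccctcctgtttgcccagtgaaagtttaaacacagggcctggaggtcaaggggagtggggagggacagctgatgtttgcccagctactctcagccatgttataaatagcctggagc
Hes1 site 2660, the part upstream of the TSS, chr16:30065271-30065425: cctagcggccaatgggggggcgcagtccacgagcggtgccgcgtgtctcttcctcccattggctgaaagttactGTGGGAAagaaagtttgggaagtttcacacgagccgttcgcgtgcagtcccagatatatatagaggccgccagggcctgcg
Hes1 site 2660, around the GATA match in the untranslated first exon, chr16:30065440-30065469: tggagctggtgcTGATAAcagcggaatccc
Notch4 site 3079, around the GATA match in an untranslated exon of Agpat1, chr17:34742840-34742869: gaggggtgggggAGATAGcggcggcagtag
Jag2 site 4018 with flanking bases, chr12:114188531-114188730: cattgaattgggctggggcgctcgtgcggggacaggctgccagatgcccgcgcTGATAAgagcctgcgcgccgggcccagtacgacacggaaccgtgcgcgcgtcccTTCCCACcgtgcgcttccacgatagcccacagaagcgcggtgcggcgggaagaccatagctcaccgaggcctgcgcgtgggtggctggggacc
Dll4 site 4140, at the start of Vps18, shown because it holds no match, chr2:119114214-119114477: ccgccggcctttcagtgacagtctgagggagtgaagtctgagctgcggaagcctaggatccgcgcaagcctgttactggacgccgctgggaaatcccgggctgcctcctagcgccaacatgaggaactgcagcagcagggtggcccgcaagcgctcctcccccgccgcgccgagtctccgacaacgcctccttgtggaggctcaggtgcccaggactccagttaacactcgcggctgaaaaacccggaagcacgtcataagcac

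**Figure D1:**
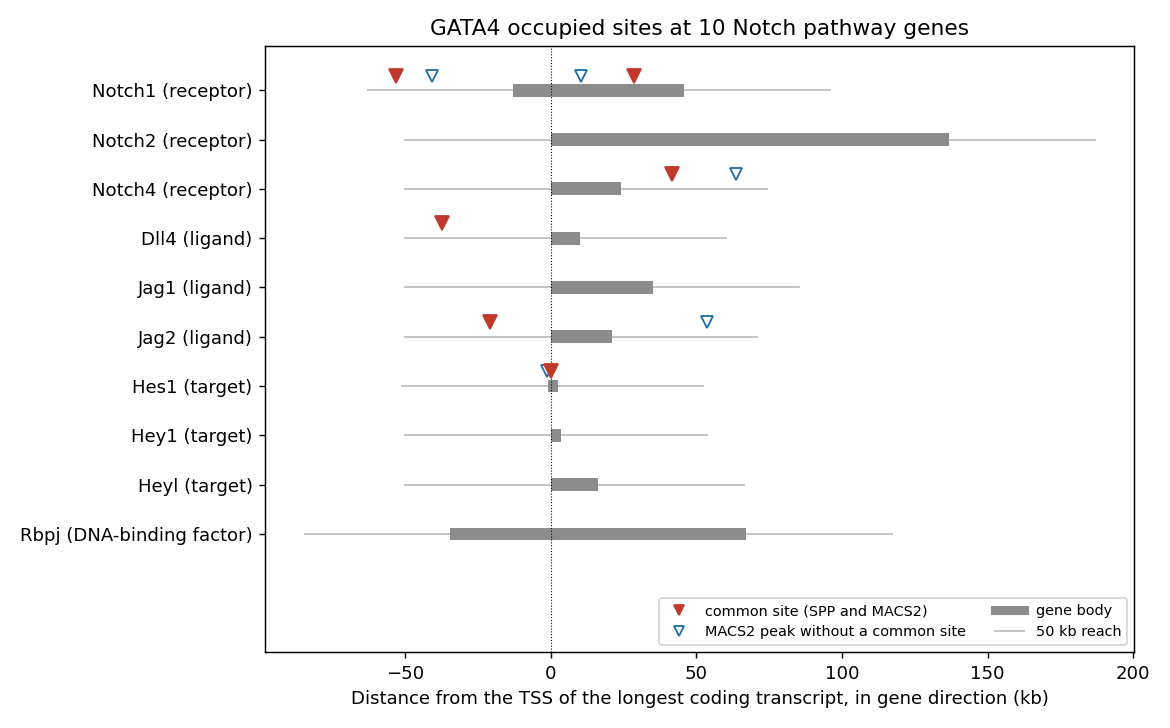
Map of the 10 genes, 1 row each with the role of the gene product in brackets. The x axis gives the distance in kb from the TSS of the longest coding transcript in the direction of the gene, grey bars are gene bodies, thin lines the 50 kb reach, filled triangles the 6 common OS and open triangles the 5 MACS2 peaks that meet no common OS. Sites are seen at Notch1, Notch4, Dll4, Jag2 and Hes1, and the rows of the other 5 genes are empty.

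The share of genes with a site has to be read against the genome. Of 22380 protein-coding genes in the annotation, 6194 (27.7%) had at least 1 common OS in the body or within 50 kb, against 5 of the 10 Notch pathway genes (50%, exact binomial 95% interval 18.7 to 81.3, which covers counting error only). The interval for so few genes includes the background, and no test was run over genes chosen with earlier results known. The search windows were also somewhat longer, with a median of 123 kb for the 10 genes and 115 kb for all protein-coding genes. Per length, the windows of the 10 genes held 4.25 OS per Mb and those of all protein-coding genes 2.89 per Mb, where an OS counts once for each gene it reaches. Within 10 kb, Notch1 and Hes1 were left, beside 13.7% of all protein-coding genes, and within 5 kb the same 2 genes, beside 11.3%. With the gene body alone, 2 of the 10 genes (Notch1 and Hes1) held an OS, beside 7.67% of all protein-coding genes. Within 1 kb of a TSS of the gene there was 1 member (Hes1), beside 3.44%. An OS whose nearest coding TSS was that of the gene itself was found for Notch1 and Hes1, and for 12.3% of all protein-coding genes. The assigned OS farthest out lay 40.1 kb from a gene body (Notch1 site 564), and the nearest one beyond the limit lay 55.4 kb away from the Notch1 body.

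**Figure D2:**
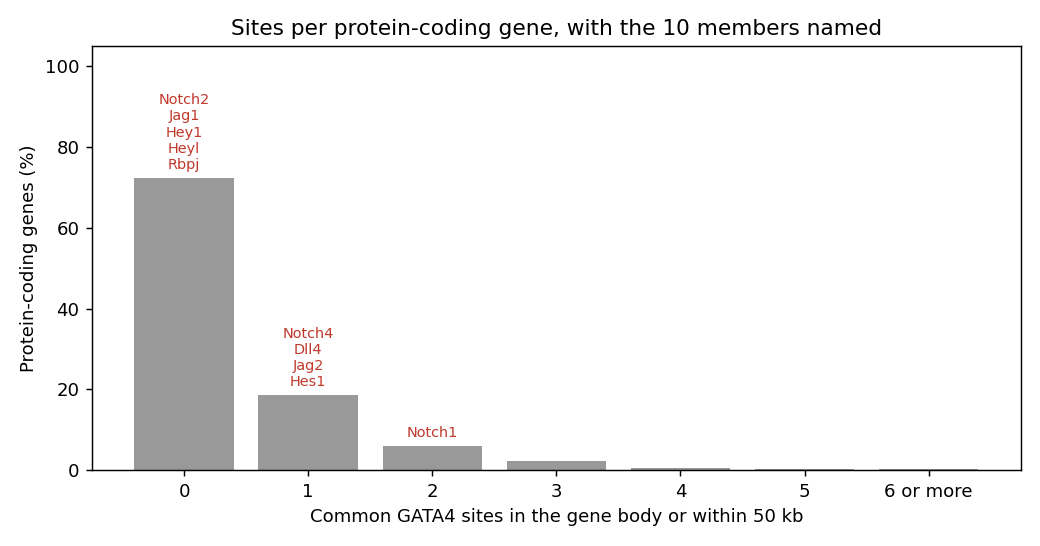
Share of the 22380 protein-coding genes (y axis, percent) by the number of common GATA4 OS in the gene body or within 50 kb (x axis), with the Notch pathway genes written above the bar they belong to. Genes with 0 sites make up 72.3%, genes with 1 site 18.5% and genes with 2 sites 5.9%, and 5, 4 and 1 of the Notch pathway genes fall there.

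Among the receptors, Notch1 was occupied most. Notch1 is required for arterial and many other cell fates, and its gene (ENSMUSG00000026923.8) spans chr2:26313423-26372183 on the minus strand. It held OS 407 (chr2:26330541-26330862, 322 bp) in intron 15 of 33 of its longest coding transcript, 28.6 kb inside the gene from the TSS of that transcript. The second, OS 564 (chr2:26412141-26412411, 271 bp), lay between genes, 40.1 kb upstream of the Notch1 gene body. Its nearest coding TSS, at 23.3 kb, was that of Egfl7, which encodes a secreted endothelial protein that has been linked to Notch signalling. Both stood near the top of the lists. OS 407 was within the leading 9.23% of the common list and met MACS2 peak 316 (leading 5.39%), and OS 564 was within the leading 12.8% and met MACS2 peak 332 (leading 5.66%). The MACS2 list added a peak in intron 2 (number 4652, chr2:26348405-26349381, 79.3% from the top) and one 28044 bp upstream of the nearest Notch1 TSS (number 5271, chr2:26399756-26400699, 89.8% from the top). The first held 1 GATA match and the second 0, and neither met an SPP peak. The Notch1 window therefore held 2 common OS or 4 MACS2 peaks.

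The GATA letters of the Notch1 sites differed in layout. In OS 564, AGATAA stood on the minus strand at chr2:26412269-26412274 and again at chr2:26412291-26412296, with centres 4 bp to the left and 18 bp to the right of the midpoint. OS 407 had a single match, AGATAA on the minus strand at chr2:26330619-26330624, 80 bp to the left of the midpoint. Over the 3655 common OS that held a match, the one closest to the midpoint had a median distance of 18 bp (quartiles 8.5 and 31.8). OS 407 thus had its full match far out, in a site of 322 bp against a median width of 190 bp. OS 407 held 3 GATA cores (the letters GATA alone), 1 of them inside the full match. The others were centred 17 bp to the left and 95 bp to the right of the midpoint.

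The other receptors showed less. Notch4, a receptor found mainly in endothelial cells, (ENSMUSG00000015468.8) lies at chr17:34701213-34725448 on the plus strand among 10 other protein-coding genes within reach. Its only OS, 3079 (chr17:34742690-34743009, 320 bp), was 17.4 kb beyond the gene end and 44 bp from the TSS of Agpat1, an acyltransferase of phospholipid synthesis, in exon 1 of that gene. A MACS2 peak (number 3753) without a common OS lay within reach as well, 153 bp from the TSS of Ppt2. Notch2, the receptor whose loss is known to impair bile duct formation, (ENSMUSG00000027878.9, chr3:97817461-97954290, plus strand) had no peak of any list in a window of 236.8 kb, the longest of the 10. Its nearest common OS was 117.0 kb from the gene body.

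Of the ligands, Dll4 and Jag2 each had 1 common OS, and Jag1 had none. The OS assigned to Dll4, an endothelial ligand that restrains vessel sprouting (ENSMUSG00000027314.6, chr2:119151520-119161698, plus strand), was number 4140 (chr2:119114204-119114523, 320 bp), 37.2 kb upstream of the Dll4 TSS and 114 bp from that of Vps18, a subunit of complexes for vesicle fusion. The OS covered the start of a coding Vps18 transcript. Jag2, a ligand of the Jagged family, is ENSMUSG00000002799.5 at chr12:114146801-114167706 on the minus strand. Its OS (number 4018, chr12:114188585-114188675, 91 bp) lay 20.9 kb upstream of the Jag2 TSS and 8.3 kb from the TSS of Nudt14, in an intron of the long non-coding RNA gene Gm17274. Both stood near the end of the common list, at 93.9% (Dll4) and 91.1% (Jag2) from the top. The MACS2 peaks they met stood nearer the middle of the MACS2 list, at 58.8% (Dll4) and 56.4% (Jag2) from the top. A MACS2 peak (number 3151) lay downstream of Jag2 with no common OS. Jag1, the ligand mutated in Alagille syndrome with its scarcity of bile ducts (ENSMUSG00000027276.7, chr2:136907192-136942380, minus strand), had its nearest common OS 1227.2 kb away.

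Hes1 (ENSMUSG00000022528.7, chr16:30064470-30067882, plus strand) was the target gene with an OS at its start. OS 2660 (chr16:30065261-30065580, 320 bp) had its midpoint 6 bp upstream of the TSS of the longest coding transcript, at chr16 position 30065426. The gene record itself opens 956 bp earlier, at 30064470, and the midpoint lay 950 bp downstream of that position, in an intron of another Hes1 transcript. In the common list the OS was at 60.3% from the top, and it met MACS2 peak 1723 (29.4% from the top, 421 bp wide). A second MACS2 peak (number 5051, chr16:30063663-30064679, 1017 bp) had its midpoint 1255 bp upstream of the same TSS, stood at 86.1% of the MACS2 list and met no SPP peak. The GATA match TGATAA at chr16:30065452-30065457 was downstream of the TSS and 34 bp to the right of the midpoint. An RBPJ match on the plus strand (chr16:30065345-30065351) started 81 bp before the TSS, as seen in the upstream stretch printed above. Among 22372 protein-coding genes, 5.12% had an RBPJ match in the 250 bases before the TSS of the longest coding transcript, and Hes1 was the only one of the 10 Notch pathway genes. A GATA match in these 250 bases was present for 24.7% of genes and for Heyl alone among the 10, which had no site.

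Hey1, Heyl and Rbpj were empty. Hey1 and Heyl encode repressors of the Hes-related family, and Rbpj encodes the factor through which all Notch receptors act. The genes lie at chr3:8663362-8667039 on the minus strand (Hey1, ENSMUSG00000040289.3), at chr4:122910799-122927118 on the plus strand (Heyl, ENSMUSG00000032744.4) and at chr5:53947018-54048684 on the plus strand (Rbpj, ENSMUSG00000039191.6). Their nearest common OS lay 1374.0 kb (Hey1), 374.9 kb (Heyl) and 223.5 kb (Rbpj) from the gene body. Over all protein-coding genes on chromosomes with an OS, the median of this distance was 157 kb (quartiles 41.5 and 477). Hey1 and Jag1 were thus beyond the upper quartile, and Heyl, Rbpj and Notch2 between the quartiles.

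The empty windows did not lack GATA letters. In the windows without an OS, GATA matches ran from 1.60 per kb (Heyl) through 1.97 (Notch2), 1.99 (Hey1) and 2.23 (Jag1) to 2.67 per kb (Rbpj). In those with an OS they ran from 1.16 per kb (Notch1) through 1.20 (Jag2), 1.33 (Dll4) and 1.46 (Hes1) to 1.64 per kb (Notch4). The ranges overlap, and the median over all protein-coding genes, 2.17 per kb, was passed only by Jag1 and Rbpj among the 10. Together the windows of the 10 genes had 2528 matches, of which 5 (0.198%) were inside a common OS. The windows of the 5 genes without an OS had 1697 of these matches and those of the 5 genes with an OS had 831. By the way the genes were split, none of the 1697 could lie in an OS. In the whole genome, 5734 of 6752563 matches (0.0849%) lay in common OS. None of the 10 windows contained unknown bases.

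**Figure D3:**
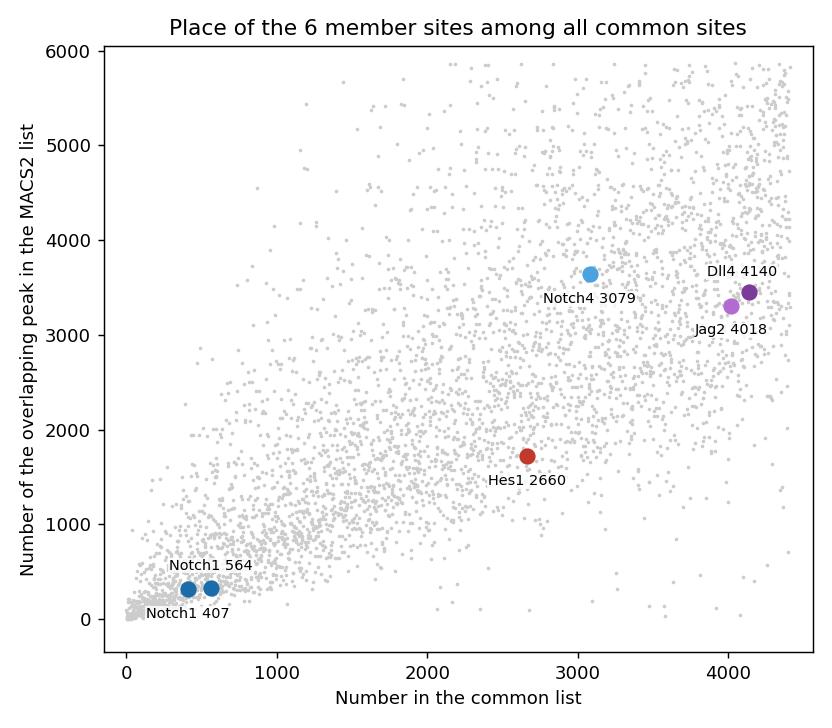
Place of each OS in the common list (x axis) and of the MACS2 peak it meets in the MACS2 list (y axis), with all 4409 OS in grey and the 6 Notch pathway OS coloured and named. Both Notch1 sites sit near the origin (407 and 564 in the common list), Hes1 lies further out at 2660, and the Notch4, Jag2 and Dll4 sites run from 3079 to 4140 in the common list and from 3309 to 3638 in the MACS2 list.

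All 6 OS met a MACS2 peak by at least 1 bp, which the making of the common list requires. All 6 were in the SPP list with the same coordinates, and that list held 0 further peaks at the 10 genes. An SPP peak lay within reach of 29.2% of all protein-coding genes. MACS2 peaks within reach came to 11, namely 4 at Notch1, 2 each at Notch4, Jag2 and Hes1, and 1 at Dll4. At 33.9% of all protein-coding genes there was a MACS2 peak within the same reach. The genes with a MACS2 peak were the same 5 genes as those with a common OS.

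Motif content was read in whole sites. A GATA match was present in 4 of the 6 OS (66.7%, exact binomial 95% interval 22.3 to 95.7) and in 3655 of all 4409 (82.9%, 81.8 to 84.0), and the wide interval for 6 sites spans the value of all sites. When each site was moved 5000 bp to the right, 1 of the 6 shifted sites and 31.9% of all shifted sites had a match. The OS without a match were those of Jag2 and Dll4. The Jag2 site begins with the letters GATA and its first base cuts through a TGATAA, so that the match appears only when flanking bases are read. In the central 200 bp, where all sites are compared at equal length, 5 of 6 had a match, beside 83.9% of all OS. The Dll4 site held no GATA core at all, while the MACS2 peak over it, 1079 bp wide, held 1 full match.

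When whole sites were read, an RBPJ match stood in 3 of the 6 OS, those of Hes1, Jag2 and Notch4 (exact binomial 95% interval 11.8 to 88.2). It stood in 4.94% of all common OS. The Hes1 and Notch4 sites lie at a coding TSS, and the share among such sites alone is not given. The 6 OS were also wider than all common OS (median 320 against 190 bp) and richer in G and C (median 59.8% against 49.4%). Hes1 was included as a classical Notch target, so its match is not independent of the choice of genes. In the central 200 bp, which evens out width but not composition, an RBPJ match was found in 2 of 6 and in 4.63% of all. The 2 were those of Hes1 and Jag2 (exact binomial 95% interval 4.33 to 77.7). The match in the Notch4 site was centred 107.5 bp to the right of the midpoint. These are counts of letters in 6 sites, and binding of RBPJ was not measured. Of further motifs in the central 200 bp, the E-box CANNTG occurred in 4 of 6 OS (61.8% of all), the ETS core AGGAAG in 3 of 6 (43.4% of all), the forkhead letters TGTTTNC in 1 of 6 (25.8% of all) and the AP-1 letters TGANTCA in 0 of 6 (7.28% of all). Within these 200 bp the ETS letters were found in both Notch1 sites and in that of Notch4. Of the 2 in OS 407, 1 on the minus strand at chr2:26330623-26330628 overlaps the GATA match. A minus-strand copy in the printed Hes1 stretch (cttcct) crosses the edge of the 200 bp and was not counted. The forkhead letters occurred in OS 564 only, at chr2:26412303-26412309 and chr2:26412368-26412374.

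**Figure D4:**
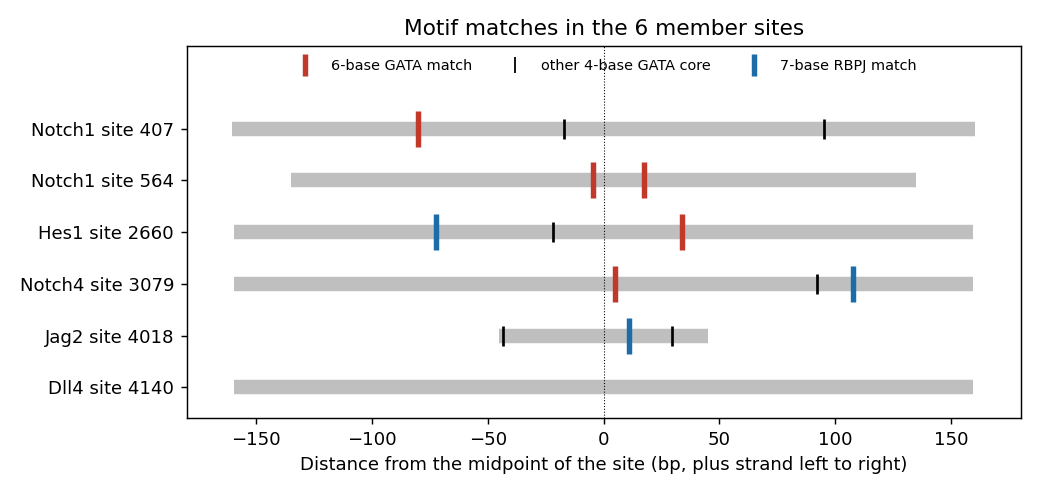
Positions of motif matches in the 6 OS, drawn as grey bars to scale around their midpoints (x axis, bp along the plus strand). Red ticks are full GATA matches, black ticks other GATA cores and blue ticks RBPJ matches. OS 564 has both of its GATA matches within 18 bp of the midpoint, OS 407 has its only one 80 bp to the left, and the Dll4 site has no tick.

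The sites also differed in base composition. The ratio of observed to expected CpG was 0.29 and 0.15 in the Notch1 sites 407 and 564, both between the quartiles of 0.138 and 0.42 over all common OS. It was 0.66 at Hes1, 0.47 at Notch4, 0.78 at Dll4 and 1.26 at Jag2, all above the upper quartile. The GC content ran from 51.6% (Hes1) to 69.4% (Notch4), against a median of 49.4% over all OS. The OS of Hes1, Notch4 and Dll4 covered a coding TSS (of Hes1, Agpat1 and Vps18). Sites within 1 kb of a coding TSS made up 14.8% of the common list. In those 651 sites the median CpG ratio was 0.67, the median list number 2485 and the share with a GATA match 72.2%, compared with 0.23, 2156 and 84.8% in the other 3758. The 4 OS above the upper quartile of the CpG ratio had list numbers from 2660 to 4140, and the 2 OS between the quartiles had 407 and 564.

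**Figure D5:**
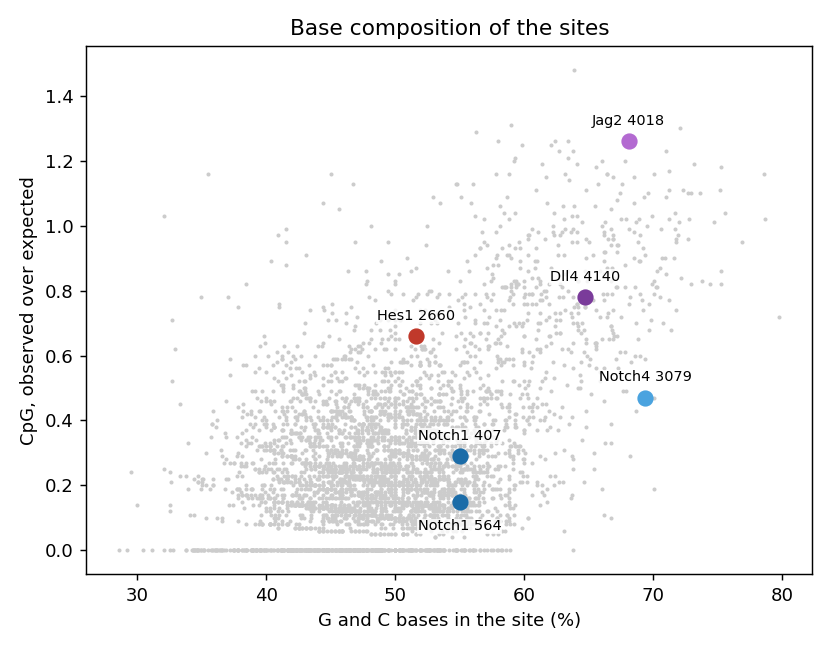
GC content of each OS (x axis, percent) and its ratio of observed to expected CpG (y axis), with all 4409 OS in grey and the 6 Notch pathway OS named. The Notch1 sites lie in the dense part at ratios of 0.29 and 0.15, and the other 4 sites lie above it at 0.47 to 1.26.

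The rest of the pathway was covered by a list of 62 further genes (other ligands and receptors, enzymes that modify or cut Notch, Numb and E3 ligases, co-activators, co-repressors and targets). Of these, 20 genes (32.3%) had a common OS within the same reach, beside 27.7% of all protein-coding genes, and their windows held 3.53 OS per Mb. At least 1 OS had its nearest coding TSS at the gene itself for 10 of the 62, beside the 12.3% of all protein-coding genes given above. The other receptor, Notch3, had 0 common OS, as had the ligands Dll1, Dll3, Dlk1 and Dner, while Dlk2 had 1 (number 4221). These genes were named after their values were seen, and Dll1 and Dner had 1 MACS2 peak each. The 4 genes with at least 3 OS or with an OS within 1 kb of a TSS were Maml3, Egfl7, Lfng and Psen2.

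Maml3 encodes a co-activator of the Notch complex and held 5 OS (numbers 1644, 2289, 3173, 3403 and 3930), of which 4 were in intron 2 and 1 in intron 1, 2.2 kb from the TSS. The 4 in intron 2 lay nearest to the coding TSS of Gm10729. Its window of 517.3 kb was long, and the density was 9.67 OS per Mb. Egfl7 had 3 OS, namely 216 at 9.0 kb upstream, the Notch1 site 564 at 24.3 kb upstream and 3212 in intron 1, measured from the TSS of the longest coding transcript (the 23.3 kb given above is to the nearest Egfl7 TSS), or 26.5 OS per Mb of its window. Site 216 was among the leading 4.9% of the common list, and it was also the OS that lay just outside the reach of Notch1. Lfng encodes a glycosyltransferase that tunes which ligands Notch responds to, and it had an OS 282 bp upstream of its TSS (number 2413, chr5:141082853-141083172, 1 GATA match). Psen2, a catalytic subunit of the gamma-secretase that cuts Notch, held 2 OS in intron 1 (numbers 545 and 2549), with 2 and 4 GATA matches.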

How the data were processed

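GATA4 ChIP and input libraries were made from whole liver. The authors aligned reads to mm9 with Bowtie 0.12.7 and retained those that mapped once. An adapted SPP and MACS2 2.0.10 were run on each replicate and on the merged replicates, with pooled input as background, and the cutoff came from agreement of peak ranks between replicates (IDR). The lists were intersected with bedtools 2.16.1, and SPP coordinates were kept. Versions follow the submitters' processing notes. The deposited files are 3 browser tracks (4409 common, 4811 SPP and 5867 MACS2 peaks) whose score is 1000 for every peak, a display value that says nothing of strength. In place of a stricter threshold, the first part of a list by peak number was tried, and whether the numbers follow peak strength is not stated in the files. The input sample entered only through the peak calls.

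Coordinates are 1-based. The reference used here (NCBI Build 37) is mm9, and 0 of 15087 peaks lay outside its chromosomes. Genes came from GENCODE M1 (22380 protein-coding), and all 10 members and 62 further genes matched. Motifs were exact letter matches on both strands. Intervals are exact binomial at 95% and cover counting error only. Members, lists and motifs were chosen with earlier results of these data known, so no test was run over them. The rule for named genes took all 10 members and, of the wider list, genes with 3 or more sites or one within 1 kb of a TSS. Checks on simulated data gave 800 of 800 window queries and 400 of 400 motif scans right. Python 3.11.15, numpy 2.4.6, scipy 1.17.1 and matplotlib 3.10.9 were used. Part of the wider list is not reported here by name.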

Additional observations from a re-analysis of the deposited data

How the results depend on the processing

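With 10 kb in place of 50 kb, 2 OS at 2 genes (Notch1 and Hes1) were left, both with a GATA match, beside 3056 protein-coding genes and 10 of the wider list, and with 5 kb the 2 OS stayed at these 2 genes, both with a match, beside 2538 and 9 genes. Assigning each OS only to the gene of its nearest coding TSS also gave 2 OS at 2 genes, both with a match, 2755 protein-coding genes and 10 of the wider list. The first 2204 OS by number in the common list held 2 OS at 1 of the 10 genes (Notch1), both with a match. Beside it stood 3572 protein-coding genes (16%) and 11 of the wider list (17.7%). For the settings named so far, the share of all OS with a match is not given. The MACS2 list gave 11 peaks at the 10 genes, 10 of them with a GATA match in its wider peaks. The share of all MACS2 peaks with a match is not given, so this count has no background. A MACS2 peak was within reach of 33 genes of the wider list, beside 7577 protein-coding genes (33.9%). The number of members with a peak stayed at 5. By reciprocal overlap of 50% 1 of the 6 OS met a MACS2 peak, and 3 did among the first 2933 MACS2 peaks by number. No share of all OS under these rules is given, so the counts have no background. The MACS2 peaks over these OS were 421 to 1515 bp wide, against 91 to 322 bp for the OS. Whole peaks, the SPP list and the longest coding transcript kept the counts within 1.5 times of those reported, though with the longest coding transcript OS 564 fell out of reach of Notch1 and 5 OS were left. Scanning the central 100 bp gave 4 OS with a match, beside 74.3% of all common OS. Scanning 500 bp gave 5, beside 89.6%, and allowing 1 flanking base to differ gave 5, beside 92.9%. No paired analysis was possible because the lists pool the replicates. No value has a replicate error, and the depth behind a site is unknown.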
